A study of Mus musculus with 2 samples.

Results

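A cassette exon is an internal exon that some transcripts of a gene keep and others leave out. 1544 such events were found among 124183 splice junctions read in mouse CD4+ T cells, the helper lymphocytes. Each event is a set of 3 junctions on 1 strand: a skipping junction, an upstream junction that leads into the exon, and a downstream junction that leads out of it. The events were chosen by their read counts in these same 2 libraries. The exon between the inclusion junctions had to be 10 to 500 bp long, and both the skipping junction and the inclusion junctions together had to hold at least 5 reads over both libraries. Of 6650 sets of 3 junctions with an exon of that length, 1544 (23.2%) passed these read limits. They held 1467 distinct exons and 1199 distinct skipping junctions, and used 3781 junctions in all.

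Cells came from spleens of male C57BL/6JJcl mice, 4 spleens pooled, and were enriched for CD4+ T cells with an IMag kit; the age of the mice is not given in the sources used here. The mock group was held for 4 h without antibody. The stimulated group was held for the same time on immobilised antibodies to CD3e, a T cell receptor subunit, and CD28, a costimulatory receptor, each at 2 ug/ml. Whether both groups came from 1 pool is not given in the labels. There was 1 library per group, so no difference below has a replicate check, and each compares 2 libraries rather than 2 conditions. The mock library held 1147232 junction reads and the stimulated library 1341197. Both had reads on the T cell genes Cd3d, Cd3e, Cd3g, Cd4 and Thy1 (2485 and 1796 in all). B cell markers (5 of 5 genes with reads) held 155 and 134 reads, myeloid markers (4 of 5 genes) 36 and 37, NK cell markers (1 of 3 genes) 1 and 1, and Cd8b1 16 and 5. Cd8a, Itgam, Ncr1 and Nkg7 had none in either library. The part of other cells in the exon values was not tested.

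Alternative splicing lets a gene make several proteins from 1 transcript unit. An exon whose length is a multiple of 3 can be left out without moving the reading frame. Some other exons carry a stop codon or shift the frame when kept, and transcripts with them are targets of nonsense-mediated decay, a quality control path that many splicing factors use to limit their own level. In T cells the best known case is Ptprc, which encodes the receptor phosphatase CD45. Its variable exons encode part of the outer domain and are left out more often in activated and memory cells.

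The following coding exons carry the main results below, and all of them can be set against an annotated exon of the same length between introns of the same lengths. Bases were read from GENCODE M21 transcripts, 5′ to 3′. Capitals mark the cassette exon, and lower case marks 15 bases of each neighbouring exon in the transcript that was read. The Ptprc and Tcf7 exon numbers below come from a different annotated transcript of each gene. In the transcripts that gave the bases, these exons are 4 of 8 and 5 of 10. Positions are mm9, from the deposited junctions.
Ptprc (chr1:140016597-140016743, minus strand, exon 5 of 33): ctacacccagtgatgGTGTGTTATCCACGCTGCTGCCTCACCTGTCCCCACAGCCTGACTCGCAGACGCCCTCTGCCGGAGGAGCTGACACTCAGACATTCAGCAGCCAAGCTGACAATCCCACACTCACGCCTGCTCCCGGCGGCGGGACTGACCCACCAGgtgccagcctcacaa
Hnrnpd (chr5:100392750-100392896, minus strand, exon 7 of 9): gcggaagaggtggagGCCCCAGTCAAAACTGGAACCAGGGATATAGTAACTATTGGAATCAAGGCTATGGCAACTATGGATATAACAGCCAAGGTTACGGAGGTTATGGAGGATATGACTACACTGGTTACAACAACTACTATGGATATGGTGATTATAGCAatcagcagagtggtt
Cblb (chr16:52186462-52186593, plus strand, exon 16 of 19): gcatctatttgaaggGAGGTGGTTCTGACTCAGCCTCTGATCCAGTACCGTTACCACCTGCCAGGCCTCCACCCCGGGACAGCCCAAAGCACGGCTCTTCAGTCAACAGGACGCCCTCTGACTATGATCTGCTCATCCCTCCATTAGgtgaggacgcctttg
Mef2d (chr3:87961956-87962093, plus strand, exon 4 of 12): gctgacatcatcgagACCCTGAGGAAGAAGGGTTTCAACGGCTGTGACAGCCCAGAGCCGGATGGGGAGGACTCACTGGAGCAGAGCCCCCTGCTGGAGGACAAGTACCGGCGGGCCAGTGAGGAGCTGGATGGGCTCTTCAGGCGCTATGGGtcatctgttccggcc
Ikzf1 (chr11:11658198-11658320, plus strand, exon 7 of 9): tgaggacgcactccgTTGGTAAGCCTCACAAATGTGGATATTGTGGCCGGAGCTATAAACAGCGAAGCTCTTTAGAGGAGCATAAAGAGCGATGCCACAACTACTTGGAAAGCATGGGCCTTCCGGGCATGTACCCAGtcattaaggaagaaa
Zfp207 (chr11:80206586-80206678, plus strand, exon 9 of 12): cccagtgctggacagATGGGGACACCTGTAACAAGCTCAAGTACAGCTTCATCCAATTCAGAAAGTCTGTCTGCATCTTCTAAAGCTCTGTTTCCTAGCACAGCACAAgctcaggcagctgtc
Clk1 (chr1:58476965-58477055, minus strand, exon 4 of 13): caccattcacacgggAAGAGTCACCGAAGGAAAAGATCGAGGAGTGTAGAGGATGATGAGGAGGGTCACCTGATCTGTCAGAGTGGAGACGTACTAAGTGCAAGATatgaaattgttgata
Rif1 (chr2:51972188-51972265, plus strand, exon 32 of 36): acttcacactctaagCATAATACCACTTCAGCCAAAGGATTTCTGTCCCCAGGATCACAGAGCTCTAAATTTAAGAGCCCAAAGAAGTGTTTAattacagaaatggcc
Nr4a3 (chr4:48062806-48062877, plus strand, exon 2 of 8): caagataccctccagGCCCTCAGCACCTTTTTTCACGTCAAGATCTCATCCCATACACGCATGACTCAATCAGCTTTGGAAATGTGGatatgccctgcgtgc
Bnip2 (chr9:69852113-69852148, plus strand, exon 10 of 11): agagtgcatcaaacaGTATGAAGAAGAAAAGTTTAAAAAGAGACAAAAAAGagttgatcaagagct
Tcf7 (chr11:52072355-52072447, minus strand, exon 6 of 11): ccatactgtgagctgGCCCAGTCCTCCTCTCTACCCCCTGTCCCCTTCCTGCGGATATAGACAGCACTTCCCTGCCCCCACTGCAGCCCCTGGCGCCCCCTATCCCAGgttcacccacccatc
All but the Clk1 exon have a length that is a multiple of 3. Their base composition differs widely: G and C make up 25% of the Bnip2 exon, 41.0% of the Rif1 exon, 63.9% of the Ptprc exon and 66.7% of the Tcf7 exon.

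The inclusion share of an exon in a library was the mean of its 2 inclusion junction counts divided by that mean plus the skipping count. Intervals are exact (Clopper-Pearson) 95% intervals and cover counting error only, since reads are not independent molecules. The shares of 709 events, in 684 exons of 420 named genes, were compared because each library had 20 or more reads on their 3 junctions. The other 835 events had fewer. An exon was called higher or lower in the stimulated library when the gap between its shares reached 20 percentage points with intervals that did not overlap. No p-value can be given with 1 library per group.

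Large differences between the libraries were the minority. The difference was under 5 points for 277 of 709 events (39.1%), and its size had a median of 6.75 points. 14 events were called higher in the stimulated library (1.97%) and 30 lower (4.23%), 44 in all (6.21%), in 32 genes. By the same thresholds a junction's share was called different at 68 of 4283 splice sites that more than 1 junction uses (1.59%). That measure divides by every junction at a site, so the percentages are set side by side and not tested. A further 68 events differed by 20 points or more with intervals that overlapped. Signed differences (stimulated minus mock) had a median of -0.74 points, with 326 above and 383 below 0. When the intervals were widened by the variance seen between the 2 inclusion junctions of an exon, 2.54 times the counting variance over 333 exons, 0 events were higher and 3 were lower: the exons of Ptprc and Hnrnpd printed above and a 225 bp exon of Pum2. The inclusion of this Pum2 exon is not annotated. Its downstream junction had 1 and 1 reads and alone gave a difference of -2.42 points. With the upstream inclusion junction alone 6 events were higher and 24 lower, and with the downstream junction alone 8 and 14.

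**Figure D1:**
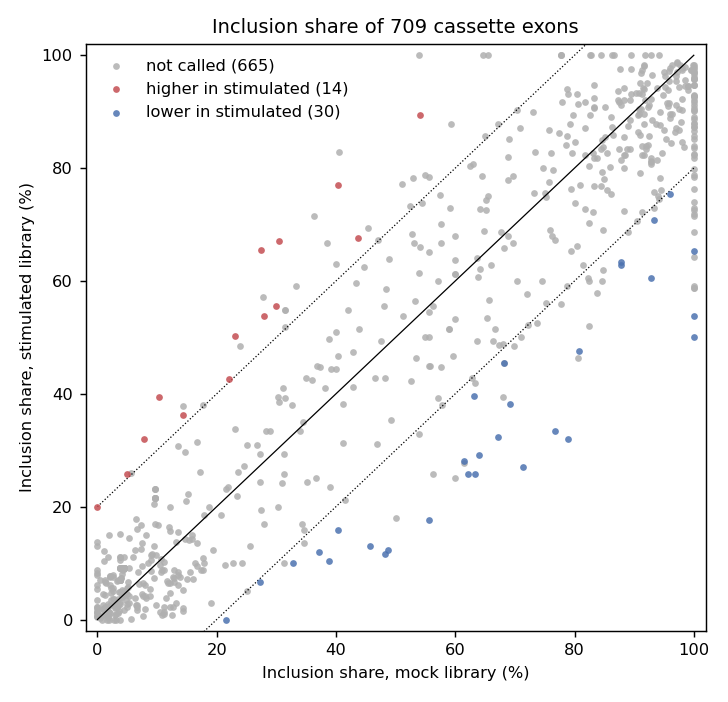
Inclusion share of each of the 709 compared cassette exons in the mock library (x axis, %) and the stimulated library (y axis, %); the solid line marks equal shares and the dotted lines a difference of 20 points. Red points are the 14 events called higher, blue points the 30 called lower and grey points the rest, which crowd at both ends of the line.

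**Figure D2:**
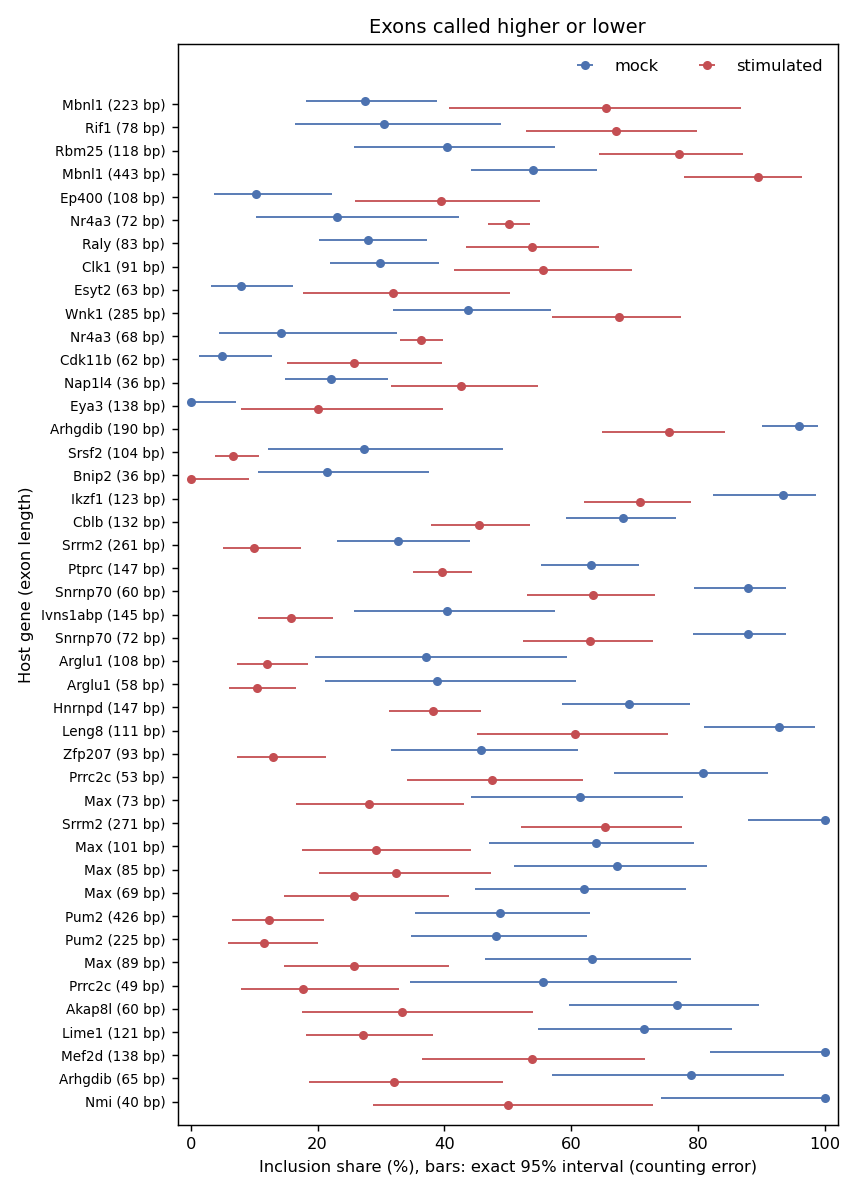
Inclusion share (%) of the 44 called events in the mock library (blue) and the stimulated library (red), ordered by difference, with exact 95% intervals; rows are named by host gene and exon length. The differences run from -50.0 points for a 40 bp exon of Nmi to 38.1 points for a 223 bp exon of Mbnl1.

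Ptprc and Cblb were the genes of the T cell receptor signalling list with exons called lower in the stimulated library. For exon 5 of Ptprc, reads went from 85 to 118 on the upstream junction, from 79 to 123 on the downstream junction and from 48 to 184 on the skipping junction. All 3 junctions had more reads in the stimulated library, and the skipping junction gained most. Inclusion was 63.1% (55.2 to 70.7) in the mock library and 39.6% (35.0 to 44.4) in the stimulated library, 23.5 points lower. Exons 4 and 6 were mostly skipped in both libraries, and exon 7 was mostly kept. Exon 4 of Ptprc (129 bp), measured against the junction that goes straight to exon 5, stood at 12.8% (8.3 to 18.8) and 6.7% (3.9 to 10.7). Exon 6 (141 bp), measured between exons 5 and 7, stood at 13.2% and 13.7%. The 72 bp exon 7, measured against the junction that joins exon 3 to exon 8, was kept at 87.3% and 92.1%. Only exon 5 was called. Exons 4, 6 and 7, and the uncalled exons of Cd6, Fyn, Skap1, Map2k7, Malt1, Foxp1, Hnrnpa2b1, Ptbp1 and Clk4 and exon 5 of Ikzf1 given below, were chosen after their values were seen.

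Cblb, a ubiquitin ligase that restrains T cell activation, was the other called gene among 39 compared events of the list for T cell receptor signalling. In that list 0 were higher and 2 lower (5.13%, against 6.21% called over all compared events), with a median difference of -2.93 points. The adaptor gene Lime1, whose event given below was called lower, was not in this list. The 132 bp exon 16 of Cblb had 101 mock and 68 stimulated reads upstream, 36 and 42 downstream, and 32 and 66 on the skipping junction. Inclusion was 68.2% (59.2 to 76.5) and 45.5% (37.8 to 53.5). The upstream junction alone put the exon 25.2 points lower and the downstream junction alone 14.1. Exon 9 of Cd6, a surface receptor that tunes T cell receptor signals, went from 4 to 27 skipping reads while its inclusion junctions held 46 and 91 reads upstream and 58 and 143 downstream. Its share was 92.9% (83.1 to 98.0) and 81.2% (74.4 to 87.0), a difference of -11.6 points that did not meet the limit. Exon 9 of the kinase Fyn (156 bp), at 82.6% and 89.4%, and an exon of the adaptor Skap1 (48 bp), at 17.3% and 26.1%, were not called either. In the list of NF-kB and MAP kinase genes 0 of 11 compared events were called, beside 6.21% over all compared events. Its lowest was the 48 bp exon 2 of Map2k7, an upstream kinase of JNK. It had 11 and 8 reads upstream, 6 and 5 downstream and 4 and 10 skipping, for shares of 68.0% (40.9 to 89.7) and 39.4% (20.8 to 62.3). A 64 bp exon of Malt1, a protease of the NF-kB path, had 3 mock reads on its junctions in all, too few to compare. In the stimulated library it had 11 upstream, 12 downstream and 23 skipping reads (33.3%, 21.1 to 48.3).

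**Figure D3:**
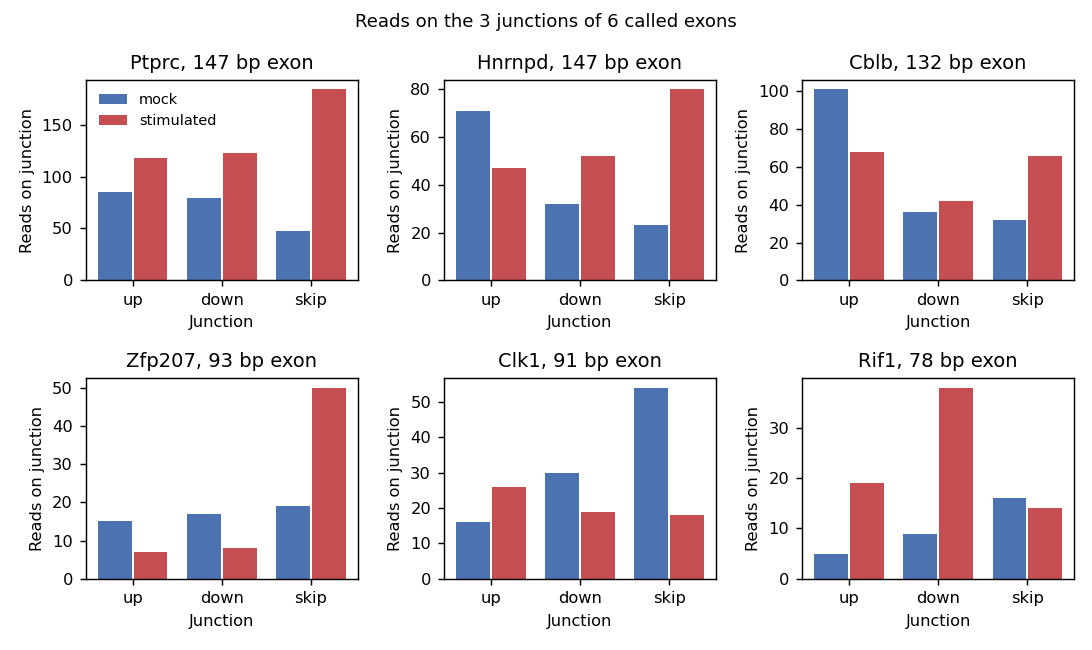
Reads on the upstream inclusion (up), downstream inclusion (down) and skipping (skip) junctions of 6 called exons in the mock (blue) and stimulated (red) library, unscaled; each panel has its own axis. For the Ptprc, Hnrnpd, Cblb and Zfp207 exons the skipping junction had more reads in the stimulated library, and for the Clk1 exon fewer (54 and 18).

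Transcription factors of T cells had 52 compared events, 0 higher and 7 lower (13.5%, against 4.23% lower over all compared events). Their median difference was -1.58 points. The list did not hold the receptor gene Nr4a3, whose called events, given below, were higher. The 7 lower events lie in 3 genes. 5 of them are versions of the same exon of Max, the partner of Myc, so the count is not one of separate exons. These 5 share the upstream junction (35 and 16 reads) and the skipping junction (11 and 23 reads) and differ in where the exon ends. The version with most downstream reads (85 bp; 10 and 6 reads) had shares of 67.2% (51.0 to 81.4) and 32.4% (20.3 to 47.3), and its annotated inclusion transcript is a target of nonsense-mediated decay that ends its reading frame in this exon. Mef2d, a factor that binds as a dimer at MEF2 sites, had 14 and 10 reads upstream of its 138 bp exon, 21 and 18 downstream, and 0 and 12 skipping. Inclusion against this skipping junction was 100% (81.8 to 100) and 53.8% (36.5 to 71.6), a difference of -46.2 points. With all junctions over the exon counted as skipping, the difference was -34.0 points. Ikzf1 encodes Ikaros, a zinc finger regulator of lymphoid genes. Its 123 bp exon 7 had 22 and 57 upstream reads, 63 and 89 downstream reads and 3 and 30 skipping reads, for shares of 93.4% (82.4 to 98.6) and 70.9% (62.0 to 78.9). Both inclusion junctions of this exon put it lower by similar amounts, 22.5 points upstream alone and 20.7 points downstream alone. Exon 5 of Ikzf1 (261 bp) leaned the other way, 45.5% (29.7 to 63.0) and 69.5% (58.2 to 79.6), and was not called because the intervals overlapped. The skipping junctions of the Mef2d exon and of Ikzf1 exon 7 equal no annotated intron of these genes.

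Tcf7, which encodes the factor TCF-1 of resting T cells, had the best covered event of this list. Its exon 6 had 413 mock and 59 stimulated reads upstream, 424 and 54 downstream and 189 and 16 skipping. Inclusion was 68.9% (65.4 to 72.3) and 77.9% (67.6 to 86.5). The host gene had 3717 and 419 junction reads, a log2 ratio of -3.37 after scaling to all junction reads, and the shares differed by only 9.0 points with intervals that overlapped. Exon 17 of Foxp1 (122 bp), a forkhead factor of naive cells, stood at 98.3% (91.3 to 100) and 83.7% (73.4 to 91.4), with 1 and 11 skipping reads.

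Nr4a3, an orphan nuclear receptor that T cell receptor signals induce, had the highest log2 ratio of the 32 host genes of called events, with 152 and 4722 junction reads (a log2 ratio of 4.73). Its 72 bp exon 2 had 5 and 362 reads upstream, 4 and 318 downstream and 15 and 337 skipping. Inclusion was 23.1% (10.4 to 42.3) and 50.2% (46.9 to 53.6), so the mock share rests on 24 reads. A 68 bp version that ends 4 bases earlier was called with it, at 14.3% and 36.3%. This version shares the upstream and skipping junctions of the 72 bp exon and had 0 and 22 downstream reads of its own. Its downstream junction alone gave a difference of 6.13 points. Over all 32 host genes of called events the median log2 ratio was 0.09; 5 were 2-fold higher or more and 2 were 2-fold lower or more. Among 419 host genes of compared events the median was 0.01, with 71 and 76.

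Genes that act in splicing held 81 of the compared events, in 34 genes, and 14 of them were called (17.3%), in 10 genes, 6 higher and 8 lower. Outside these lists 30 of 628 were called (4.78%). Median differences were -10.7 points for SR proteins (3 events), -2.11 for hnRNPs and related proteins (25) and -0.64 for other splicing factors (53). No test of the difference in calls was made, since the events of 1 gene share junctions and the lists were chosen with results known. Hnrnpd encodes AUF1, which binds AU-rich RNA, and its exon 7 separates the longer from the shorter protein forms. Reads went from 71 to 47 upstream, from 32 to 52 downstream and from 23 to 80 on the skipping junction. Inclusion was 69.1% (58.6 to 78.7) and 38.2% (31.3 to 45.7), 30.9 points lower in the stimulated library. In Hnrnpa2b1 a 120 bp coding exon stood at 79.4% (70.7 to 86.6) and 65.3% (58.4 to 72). In Ptbp1, a repressor of many exons, a 78 bp exon stood at 46.8% (37.3 to 56.9) and 31.0% (25.1 to 37.7). Both were lower by less than the limit, 14 and 15.8 points. Raly, an hnRNP relative, went the other way in an 83 bp exon of its 5′ UTR, with 30 and 54 reads upstream, 12 and 23 downstream and 54 and 33 skipping (28.0%, 20.2 to 37.2, and 53.8%, 43.4 to 64.4).

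Clk1, a kinase that phosphorylates SR splicing proteins, had 16 and 26 reads upstream of exon 4, 30 and 19 downstream, and 54 and 18 skipping. Inclusion was 29.9% (21.9 to 39.1) and 55.6% (41.5 to 69.6), 25.7 points higher in the stimulated library. Annotated transcripts that skip this exon are targets of nonsense-mediated decay or keep an intron. The related kinase gene Clk4 has an exon 4 of the same length, 91 bp. It stood at 38.5% (21.5 to 59.4) and 66.7% (39.2 to 89.2), from 27 and 20 reads on its 3 junctions, and was not called. Rbm25, a splicing regulator, was higher in a 118 bp exon at 40.4% (25.7 to 57.4) and 76.9% (64.4 to 87.0). Its difference was 51.0 points from the upstream junction alone and 28.5 from the downstream one. With all junctions over the exon counted as skipping it was 26.4 points. Both called events of Mbnl1, a muscleblind splicing factor, used a skipping junction of 37 and 5 reads. The 443 bp one stood at 54.0% (44.2 to 64.0) and 89.5% (77.8 to 96.4), with 3 and 1 reads upstream against 84 and 84 downstream. Its difference was 9.17 points from the upstream junction alone and 28.6 points when all junctions over the exon counted as skipping. The 223 bp one stood at 27.5% and 65.5%, and with all such junctions counted its difference was -0.36 points. Against its most-read skipping junction the 223 bp exon was not called. The 62 bp exon of the kinase gene Cdk11b, at 5.0% and 25.7%, had 0 and 1 upstream reads against 4 and 17 downstream. Neither inclusion junction is annotated. Its difference was 3.70 points from the upstream junction alone. With all junctions over the exon counted as skipping it was 16.8 points, below the limit of 20.

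Exons whose annotated inclusion transcripts are targets of nonsense-mediated decay, with no protein-coding one, were compared in 47 events. 0 were higher and 5 were lower, beside 14 and 30 of 709 over all compared events. 17 differences were above 0 and 30 below, beside 326 and 383, and the median difference was -2.21 points, beside -0.74. The 5 lie in Max, Arglu1, Akap8l, Snrnp70 and Srrm2. Arglu1, a regulator of splicing, had 5 and 12 reads upstream of its 108 bp exon, 8 and 8 downstream and 11 and 73 skipping. Inclusion was 37.1% (19.6 to 59.3) and 12% (7.3 to 18.5). The 60 bp exon of Akap8l stood at 76.7% (59.6 to 89.6) and 33.3% (17.6 to 53.9). In Snrnp70, which encodes a U1 snRNP protein, the 60 bp exon had 144 and 94 reads upstream but 1 and 3 downstream, so its share rests on 1 side, and the downstream junction alone gave a difference of 0.59 points. The same holds for the 261 bp exon of Srrm2, a nuclear speckle protein, with 34 and 10 reads upstream and 3 and 2 downstream (-3.75 points from the downstream junction alone). Srsf2, an SR protein that limits its own level, had a 104 bp exon behind its stop codon, also in transcripts annotated as coding. It had 2 and 5 reads upstream, 7 and 11 downstream and 12 and 112 skipping, for 27.3% (12.2 to 49.2) and 6.7% (3.8 to 10.8). It was the only called event among 3 compared for SR proteins (33.3%, beside 6.21% over all compared events).

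Fully coding exons of protein-coding transcripts had 316 compared events, 6 higher and 9 lower, beside 14 and 30 of 709 over all compared events. Their median difference was -1.83 points, beside -0.74. Rif1, a protein of DNA replication timing and break repair, had 5 and 19 reads upstream of its 78 bp exon 32, 9 and 38 downstream and 16 and 14 skipping. The skipping junction was nearly level while both inclusion junctions gained reads, and inclusion was 30.4% (16.5 to 48.9) and 67.1% (52.8 to 79.8). Zfp207, a zinc finger protein of the mitotic spindle, showed the reverse in its 93 bp exon 9. Reads were 15 and 7 upstream, 17 and 8 downstream and 19 and 50 skipping, for 45.7% (31.6 to 61.1) and 13.0% (7.3 to 21.4). In Bnip2, a BCL2-interacting protein, the 36 bp exon had 6 and 5 mock inclusion reads and none in the stimulated library, against 20 skipping reads in each, so inclusion was 21.6% (10.6 to 37.6) and at most 9.2%. The chromatin remodeller gene Ep400 (108 bp; 10.3% and 39.4%), the kinase gene Wnk1 (285 bp; 43.8% and 67.6%) and the coactivator gene Eya3 (138 bp; 0 and 20%) were higher. The Eya3 exon had 7 inclusion reads, all stimulated, and its difference lay at the limit. A 111 bp exon of Leng8 was lower (92.8% and 60.6%).

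Most other called events lay outside fully coding exons or had no annotated inclusion. Those of Akap8l, Arhgdib, Ivns1abp, Leng8, Nmi and Prrc2c were named after their values were seen. Lower events were a 225 bp and a 426 bp version in Pum2, an RNA-binding repressor, which share an upstream junction of 38 and 11 reads but had 1 and 1 or 2 and 2 reads downstream. A 121 bp exon of the adaptor gene Lime1, some of whose junctions also fit the overlapping gene Zgpat, was at 71.4% and 27.1%. The 40 bp exon in the 5′ UTR of Nmi was at 100% (74.2 to 100) and 50% (28.8 to 73.0). Arhgdib had 2 called exons that share a skipping junction of 4 and 18 reads, and neither was called against the skipping junction that gave it most reads. A 58 bp version of the Arglu1 exon, a 72 bp version of the Snrnp70 exon, a 145 bp event in Ivns1abp, a 271 bp exon of Srrm2 and a pair of events in Prrc2c, the 49 bp one fully coding, completed the lower set. The Ivns1abp event had 23 and 29 reads upstream but 0 and 1 downstream. The 49 bp Prrc2c event had 19 and 6 upstream and 1 and 3 downstream. The downstream junction alone put both slightly higher (1.23 and 1.39 points). Esyt2 (63 bp; 7.9% and 31.9%) and Nap1l4 (36 bp; 22.1% and 42.6%) completed the higher set. Nap1l4 encodes a histone chaperone, and its exon holds the end of the reading frame, and each inclusion junction alone put it higher by a like amount (20.8 points upstream and 20.3 downstream). Over all 44 called events both inclusion junctions gave the same direction in 39 and a difference of at least 20 points in 22. In 28 the inclusion junctions lay within 4-fold of each other.

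Surface, adhesion and cytokine receptor genes had 23 compared events and none called, beside 6.21% over all compared events, with a median difference of -0.24 points. Single differences ran from -34.3 to 12.8 points, and the lowest was not called because its intervals overlapped. An exon of Il2rg, the shared chain of interleukin receptors, was kept at 97.3% and 97.0%. A 75 bp exon of the tetraspanin gene Cd53, among the 5 best covered events, had 172 and 336 reads upstream, 278 and 434 downstream and 0 and 12 skipping (100%, 98.4 to 100, and 97.0%, 94.8 to 98.4). In Shisa5 a 116 bp exon had 740 and 247 upstream reads and 1 and 4 skipping reads (99.9% and 98.3%). The best covered hnRNP event, a 93 bp exon of Pcbp2, stood at 82.5% (77.8 to 86.7) and 80.5% (75.2 to 85.1). Genes of the cytoskeleton and migration had 21 compared events, of which only the Wnk1 exon was called, and apoptosis genes had 4, of which only the Bnip2 exon was. The median differences of these lists were 6.52 and -0.84 points, beside -0.74 over all compared events. Best covered in these lists were a 113 bp exon of Capzb, kept at 1.8% and 0.81%, and a 117 bp exon of Pdcd6ip, kept at 92.9% and 100%. The best covered exons of 3 further lists lay in the splicing factor gene Sf1 (89.3% and 92.1%), in Nfkb1 (97.3% and 98.9%) and in the kinase gene Dgka (99.0% and 93.9%). The best covered SR protein event, a 36 bp exon of Srsf7, stood at 86.0% (66.1 to 96.9) and 75.4% (64.2 to 84.8).

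A list of 21 genes in which activation-dependent splicing has been described in T cells had 17 compared events, which need not be the exons described. Among these only the Clk1 exon was called higher and only the Ptprc exon lower, 11.8% against 6.21% over all compared events, and the median difference was -4.07 points.

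The annotation held many but not all of the events. All 3 junctions equalled annotated introns of 1 gene in 729 events (47.2%). In 550 the skipping junction was annotated and the inclusion of the exon was not, in 160 the reverse held, and in 126 neither was annotated. Where inclusion was not annotated, the 272 compared events had a median share of 11.1% in each library, while fully coding exons had medians of 83.3% and 80.0%. Of 856 exons with annotated inclusion, 557 were fully coding, 145 partly coding, 75 in a 5′ UTR, 17 in a 3′ UTR and 62 in non-coding transcripts. 905 genes held at least 1 event, 625 of them a single exon. Dnm2 held most, 42 exons, of which 40 lie under 1 skipping junction (65 and 20 reads). Their starts are often 44 bp apart, a spacing seen 12 times. They share reads on a few junctions, and 0 were called.

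Coding events more often had a length divisible by 3 than coding exons with no skipping junction. Among 539 fully coding cassette exons of protein-coding transcripts 69.4% (65.3 to 73.3) had a length divisible by 3. Among 61128 internal coding exons with both flanking junctions and no skipping junction it was 38.6% (38.3 to 39.0). Coding exons kept at 10% to 90% over both libraries reached 73.9% (67.2 to 79.8; 199 exons), and those kept at 90% or more 46.2% (35.8 to 56.9; 93 exons). Exons whose inclusion is not annotated stood at 34.3% (30.6 to 38.2). Over all 1467 exons the share was 46.4% (43.8 to 48.9), and in the 44 called exons 23 were multiples of 3. Exons under 50 bp made up 7.98% of cassette exons and 3.05% of exons with no skipping junction. Median lengths were 111 and 121 bp. G and C content had medians of 50% (856 exons with annotated inclusion) and 50.4%, and the last base was G in 79.4% (76.6 to 82.1) and 80.5% (80.2 to 80.8).

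**Figure D4:**
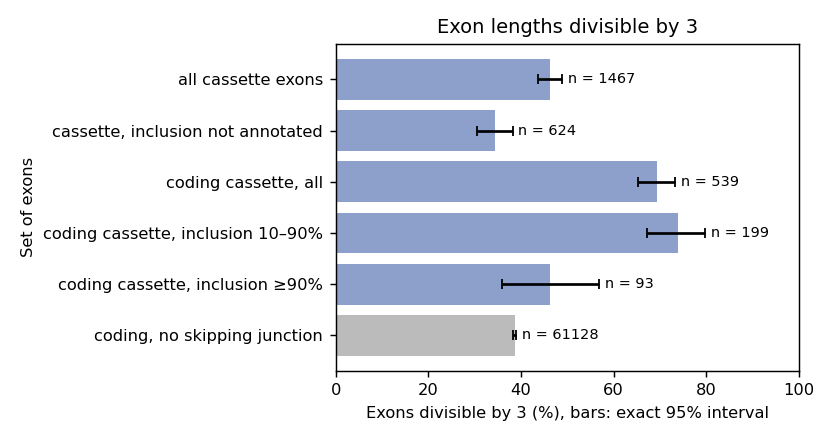
Percentage of exons with a length divisible by 3 in 6 sets, with exact 95% intervals and the number of exons; the grey bar is the set of coding exons with both flanking junctions and no skipping junction. Coding cassette exons kept at 10% to 90% stand at 73.9% and coding exons with no skipping junction at 38.6%.

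The read limits chose the events, so low values near them were set by the choice. 142 events had exactly 5 skipping reads, with a median inclusion share over both libraries of 80.0%, and 215 sets of junctions with 4 skipping reads, just outside, had 84.3%. 116 events had exactly 5 inclusion reads, with a median of 10%, and 165 with 4 had 8.0%. The mean insert size was 211.79 bp in the mock library and 199.014 bp in the stimulated one, per the labels, and its part in the shares was not tested. A read that crosses both ends of a short exon counts on both inclusion junctions, so intervals of short exons are too narrow.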

How the data were processed

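RNA from 1 mock and 1 stimulated library was compared. Per the file headers the authors deposited TopHat junction lists; their score field gives read counts per junction, used as deposited with no scaling. The submitters' processing notes name TopHat, Cufflinks and mm9; versions and settings were not given in the sources used here. Junctions missed by the aligner in 1 library change a share.

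Intron ends were read from the block sizes. The annotation given was GENCODE M21 on GRCm38, so no coordinate was converted. A junction was named when an annotated intron had its chromosome, strand and length, and at least 1 other intron of that gene fitted at the same shift. Of 124183 junctions 95158 (76.6%) got 1 name and 1311 fitted several genes; with chromosomes exchanged in 5 rotations at most 12 were named. Of the 1544 events 1489 had a gene name. Exon sequences came from the transcript matched in this way.

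Events were named by this rule: the 12 called exons with the widest gap between intervals in each direction, each exon taken only with the skipping junction that gave it most reads, called members and the best covered member of each of 10 gene lists, and the 5 best covered events. Members, lists and tests were chosen with earlier results of these data known. Where many events were compared, the call rule was tested on simulated data: of 200 events changed by 40 points among 709, it called 84.5%, and it called 2 unchanged ones. The simulated counts held counting error only, without the extra variance seen between inclusion junctions. The simulation therefore cannot give the rate of false calls in these libraries. Analyses used Python 3.11.15, SciPy 1.17.1 and pandas 2.3.3.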

Additional observations from a re-analysis of the deposited data

How the results depend on the processing

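No paired analysis was possible because each group has 1 library. The main counts were 14 higher and 30 lower among 709 compared events. Higher and lower counts were 6 and 24 with the upstream inclusion junction alone, 8 and 14 with the downstream one, 5 and 15 with at least 50 reads, and 4 and 18 with a difference of at least 30 points. They were 0 and 3 with intervals widened by the spread between inclusion junctions. Fewer events can pass the stricter limits, and fewer reads enter with a single junction, by construction. 19 were lower where all 3 junctions are annotated, and 17 were where the inclusion junctions lie within 4-fold of each other, a setting chosen after seeing the data. Under at least 10 reads, 1 event an exon, all skipping junctions, each inclusion junction at least 5 reads, all 3 junctions in both libraries and a difference of at least 10 points both counts stayed within 1.5 times. The median difference (-0.74 points) was -1.91 with each inclusion junction at least 5 reads and -1.68 within 4-fold, and negative in every setting tried for it. The number of events was 743 with read limits of 10 and 659 with at least 5 reads on each inclusion junction. The share of lengths divisible by 3 was 49.7% with read limits of 10. Among 141 values of named events under other settings 128 stayed inside the interval of the difference, 9 moved outside it and 4 of called events changed sign: the 73 bp event of Max (8.0 points) and those of Snrnp70 (3.45 and 0.59 points) with the downstream junction alone, and the 223 bp event of Mbnl1 (-0.36 points) with all skipping junctions. Outside the naming rule, 2 further called events changed sign with the downstream junction alone, those of Ivns1abp (1.23 points) and of Prrc2c (49 bp, 1.39 points). Among named events that were not called, Il2rg (-0.24 points) was at 5.87 with the upstream junction alone and Pcbp2 (-2.06 points) at 1.83 with the downstream one. Depth limits most events: the median interval width was 19.5 points (mock) and 20.1 points (stimulated).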
